A study of Mus musculus with 6 samples.

Results

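The claudins measured here were Cldn1, Cldn2, Cldn3, Cldn4, Cldn6, Cldn7, Cldn10, Cldn12, Cldn18 and Cldn23, 10 genes taken by symbol from the 56953 mouse genes of a raw count table. Isolated pancreatic acini had been kept in Matrigel for 3 days in an assay of acinar-to-ductal metaplasia (ADM), the passage of acinar cells to a duct-like form, before RNA sequencing. There were 3 groups of 2 libraries each, namely wild-type acini (WT), acini of mice with a whole-body Dkk3 null allele (DD), and DD acini given recombinant DKK3 protein (DD + rDKK3). DKK3 is a secreted glycoprotein of the Dickkopf family.

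All cultures had Waymouth medium with 10% foetal bovine serum, soybean trypsin inhibitor and dexamethasone. The donor ages on the labels were 10 and 11 weeks for WT, 12 and 13 weeks for DD, and 14 and 15 weeks for DD + rDKK3, so age and group cannot be told apart. A DD library and the DD + rDKK3 library of that number have a title stem in common but not a labelled age, and the labels do not say whether they came from 1 animal. The p-values measure the spread between the libraries of a group. The null allele lacks the exon with the signal sequence, and the gene-level count of Dkk3 (10 and 1 for WT, 11 and 9 for DD, 5 and 5 after rDKK3) cannot check it. The library WT 2 was labelled female and the other 5 male. Its Xist count was 16 against 0 in the others, while its summed Y-linked level of 141 counts per 1000000 (CPM) lay within their range of 119 to 147. Totals ran from 12018473 to 19750401 counts per library, and acinar markers summed to between 74440 and 126300 CPM in every library. Fibroblast markers summed to 797 CPM in DD 2 and 892 CPM in DD + rDKK3 2 against 42.8 to 162 CPM in the other 4 libraries.

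Claudins are membrane-spanning proteins that form the strands of the tight junction and set which ions and molecules pass between epithelial cells. Some seal the space between cells, whereas others, Cldn2 and Cldn10 among them, form paracellular channels. The strands are tied to the actin cytoskeleton through scaffold proteins such as ZO-1, and in the exocrine pancreas these junctions separate the secreted enzymes in the lumen from the tissue. Acini and ducts carry different mixtures of claudins, and Cldn18 is best known from stomach and lung and from precursor lesions of pancreatic cancer.

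The 10 genes differed widely in level. Levels of different genes are compared here only as CPM per kb, that is CPM divided by the length in kb of all annotated exons of the gene merged. Averaged over the 6 libraries, Cldn4 and Cldn3 stood first at 330.2 and 314.4 CPM per kb. Cldn7 followed at 59.1 CPM per kb, then Cldn6 at 19.3, Cldn10 at 18.3 and Cldn2 at 12.3 CPM per kb. Cldn12 averaged 6.81, Cldn18 3.66 and Cldn23 2.60 CPM per kb, and Cldn1 came last at 0.0390 CPM per kb. Between neighbours in this order, the ranges over the 6 libraries overlapped for Cldn4 and Cldn3, Cldn6 and Cldn10, Cldn10 and Cldn2, and Cldn18 and Cldn23. The other neighbours did not overlap. Cldn4 and Cldn3 together made up 85.3% and 83.1% of the summed CPM per kb of the 10 genes for WT, 84.2% and 81.5% for DD, and 84.6% and 85.0% for DD + rDKK3. Their joint share thus varied little relative to its size. Smaller shares varied more in that sense, with Cldn18 from 0.256% to 0.746%, Cldn2 from 1.24% to 2.18% and Cldn10 from 1.68% to 2.86%. The share of Cldn23 ran from 0.241% to 0.411% and that of Cldn7 from 6.7% to 9.88%.

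**Figure D1:**
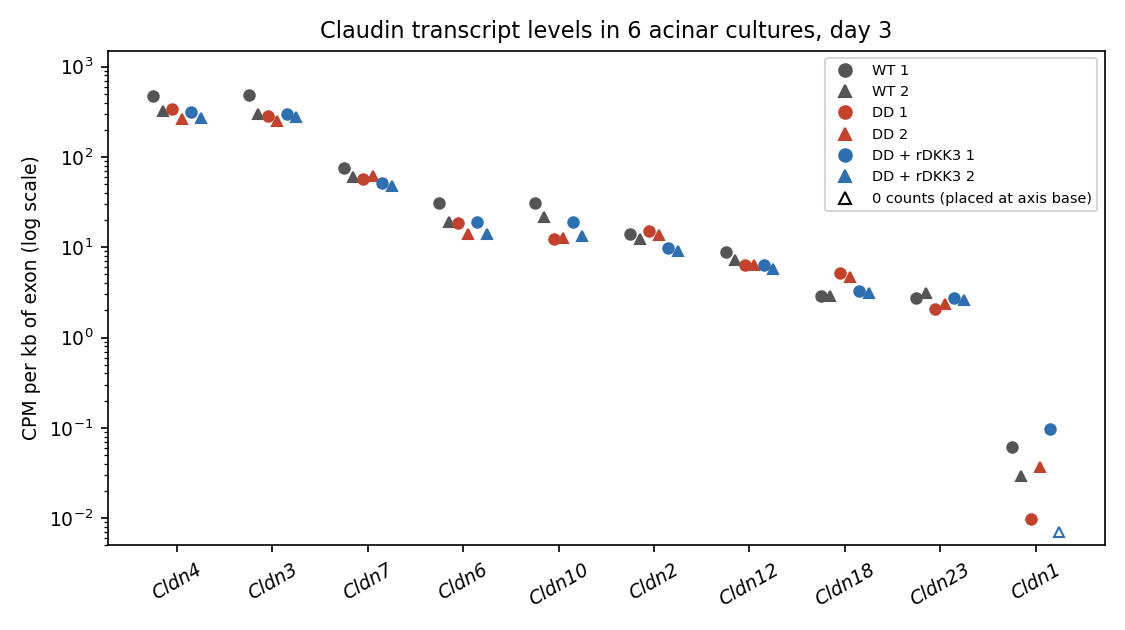
Level of each claudin in the 6 libraries as CPM per kb of exon, on a log axis, with genes ordered by their mean. Circles and triangles are the libraries numbered 1 and 2 of each group. Cldn4 and Cldn3 lie on top of each other at the left, and Cldn1, open symbol where it had 0 counts, lies far below the rest.

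The promoters of Cldn4, the gene with the highest level, and of Cldn10, Cldn18 and Cldn2, on which the comparisons below turn, are printed as the 250 bases before an annotated transcript start in GRCm39 (GENCODE M39), read 5′ to 3′ on the strand of the gene. Cldn10 has more than 1 annotated start, of which that of transcript Cldn10-203 is shown. The window of Cldn10-201, at chr14:119025070-119025319, was searched but is not printed. Cldn18 has 2 starts, which give its stomach and lung forms their different first exons, and both are shown. Gene-level counts cannot say which start was used. The capitals mark matches on either strand, with no overlap between matches, to the AP-1 site TGANTCA, the GATA factor site AGATAA, the E-box with the letters CACCTG, the GC box spelled GGGCGG, or the TATA element spelled TATAAA. The Cldn4 promoter lies at chr5:134975789-134976038 on the minus strand, that of Cldn10 at chr14:119091894-119092143 on the plus strand and that of Cldn2 at chrX:138701230-138701479 on the plus strand. Those of Cldn18-201 and Cldn18-202 lie at chr9:99592117-99592366 and chr9:99599321-99599570 on the minus strand.
Cldn4-201: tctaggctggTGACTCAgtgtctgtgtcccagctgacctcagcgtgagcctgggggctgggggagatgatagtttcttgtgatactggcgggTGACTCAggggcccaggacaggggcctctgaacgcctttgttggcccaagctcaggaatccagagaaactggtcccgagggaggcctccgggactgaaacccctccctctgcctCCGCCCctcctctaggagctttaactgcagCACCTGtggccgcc
Cldn10-203: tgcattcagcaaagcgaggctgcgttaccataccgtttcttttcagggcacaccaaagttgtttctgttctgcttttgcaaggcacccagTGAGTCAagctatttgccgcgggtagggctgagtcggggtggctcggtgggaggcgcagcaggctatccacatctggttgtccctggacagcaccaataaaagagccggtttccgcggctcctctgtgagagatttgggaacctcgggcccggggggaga
Cldn18-201: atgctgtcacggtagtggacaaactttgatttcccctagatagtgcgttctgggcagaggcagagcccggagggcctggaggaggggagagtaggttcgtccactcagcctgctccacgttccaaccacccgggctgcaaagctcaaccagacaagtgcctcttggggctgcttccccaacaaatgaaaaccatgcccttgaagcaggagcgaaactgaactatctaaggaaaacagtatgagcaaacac
Cldn18-202: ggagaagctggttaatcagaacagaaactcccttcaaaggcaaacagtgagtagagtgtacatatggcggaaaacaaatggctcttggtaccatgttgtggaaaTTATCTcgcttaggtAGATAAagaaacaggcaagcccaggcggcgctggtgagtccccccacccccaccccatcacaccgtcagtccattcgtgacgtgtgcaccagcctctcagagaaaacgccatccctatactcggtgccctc
Cldn2-201: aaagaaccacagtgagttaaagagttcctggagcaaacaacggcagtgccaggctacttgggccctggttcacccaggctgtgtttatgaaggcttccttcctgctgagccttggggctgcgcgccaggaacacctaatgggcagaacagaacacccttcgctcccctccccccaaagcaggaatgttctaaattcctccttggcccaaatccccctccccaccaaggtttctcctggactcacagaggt
The Cldn4 window held TGANTCA at 240 to 234 and at 158 to 152 bases before the start, GGGCGG at 44 to 39 and CACCTG at 14 to 9 bases before it. The Cldn10-203 window held TGANTCA once, at 160 to 154 bases before the start, and that of Cldn18-202 held AGATAA at 146 to 141 and at 131 to 126. None of the 5 motifs was in the windows of Cldn18-201 and Cldn2-201, or in that of Cldn10-201, the other start of Cldn10. Of 21770 promoters of protein-coding genes of the same length, 6.17% held TGANTCA, 9.60% AGATAA, 17.7% CACCTG, 36.3% GGGCGG and 11.9% TATAAA. These matches describe the letters of the windows only.

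Cldn3 and Cldn4, sealing claudins common to many simple epithelia, are encoded by single-exon genes on chromosome 5 whose ends lie 39279 bases apart. Cldn3 (chr5:135015068-135016326) had 612.5 and 377.0 CPM in WT, 353.7 and 311.8 CPM in DD, and 372.5 and 347.8 CPM in DD + rDKK3. WT 1 stood well above all other libraries and WT 2 was close to DD + rDKK3 1. Cldn4 (chr5:134973973-134975788) had 861.2 and 586.3 CPM in WT, 613.1 and 476.9 CPM in DD, and 575.9 and 484.4 CPM in DD + rDKK3. Here WT 2 lay below DD 1, so that WT and DD overlapped. The ratio of Cldn4 to Cldn3 in CPM per kb, which does not depend on how libraries are scaled, was 0.975 and 1.08 for WT, 1.20 and 1.06 for DD, and 1.07 and 0.966 for DD + rDKK3, with all 3 groups overlapping.

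Cldn7 is an epithelial claudin found along the lateral membrane as well as in the junction, and Cldn6 is best known from embryonic epithelia. Cldn7 (chr11:69855605-69858711) had 159.4 and 128.2 CPM in WT, 120.1 and 130.6 CPM in DD, and 108.4 and 101.8 CPM in DD + rDKK3. Both DD + rDKK3 libraries were below all other libraries, while WT and DD overlapped. Cldn6 (chr17:23898223-23901420) had 53.3 and 32.7 CPM in WT, 32.04 and 23.9 CPM in DD, and 32.9 and 24.0 CPM in DD + rDKK3. Again WT 1 stood apart, with WT 2 next to DD 1 and DD + rDKK3 1. WT 1 was the highest of the 6 libraries for Cldn3, Cldn4, Cldn6, Cldn7, Cldn10 and Cldn12.

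Cldn12, which lacks the C-terminal motif by which most claudins bind scaffold proteins, and Cldn23, one of the less studied claudins, varied least. Cldn12 (chr5:5539537-5564958) had 89.7 and 74.0 CPM in WT, 65.0 and 65.7 CPM in DD, and 64.2 and 58.9 CPM in DD + rDKK3. The WT libraries were the highest pair and the DD + rDKK3 libraries the lowest. Cldn23 (chr8:36291866-36293713) had 5.01 and 5.69 CPM in WT, 3.83 and 4.29 CPM in DD, and 5.12 and 4.84 CPM in DD + rDKK3. Its DD libraries were the lowest of all, on 81 and 73 counts. Cldn1 (chr16:26175392-26190591), a sealing claudin of skin and many other epithelia, had 3 and 2 counts for WT, 1 and 3 for DD, and 9 and 0 for DD + rDKK3. It did not pass the low-count filter and was not tested. The 0 in DD + rDKK3 2 allows up to 0.161 CPM by the 3-count limit, and such limits cover counting error only.

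The 3 remaining claudins had patterns of their own. Cldn10 (chr14:119025320-119112901), whose transcripts from different first exons encode cation or anion channels, had 94.0 and 64.6 CPM in WT, 37.2 and 38.5 CPM in DD, and 57.1 and 40.1 CPM in DD + rDKK3. Both WT libraries were above all 4 Dkk3-null libraries, and DD + rDKK3 2 was close to DD. Its highest library had 2.53 times the CPM of its lowest, the widest range of the 9 tested claudins. Cldn18 (chr9:99571514-99599320), a barrier to sodium and protons, had 12.9 and 12.7 CPM in WT, 22.9 and 20.8 CPM in DD, and 14.7 and 13.9 CPM in DD + rDKK3. The DD libraries were the highest pair, on 483 and 354 counts, and the groups did not overlap. Cldn2 (chrX:138701577-138712135), a channel for cations and water in leaky epithelia, had 47.9 and 42.6 CPM in WT, 51.4 and 46.8 CPM in DD, and 33.4 and 31.4 CPM in DD + rDKK3. Here DD + rDKK3 stood below all 4 other libraries, and WT and DD overlapped.

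**Figure D2:**
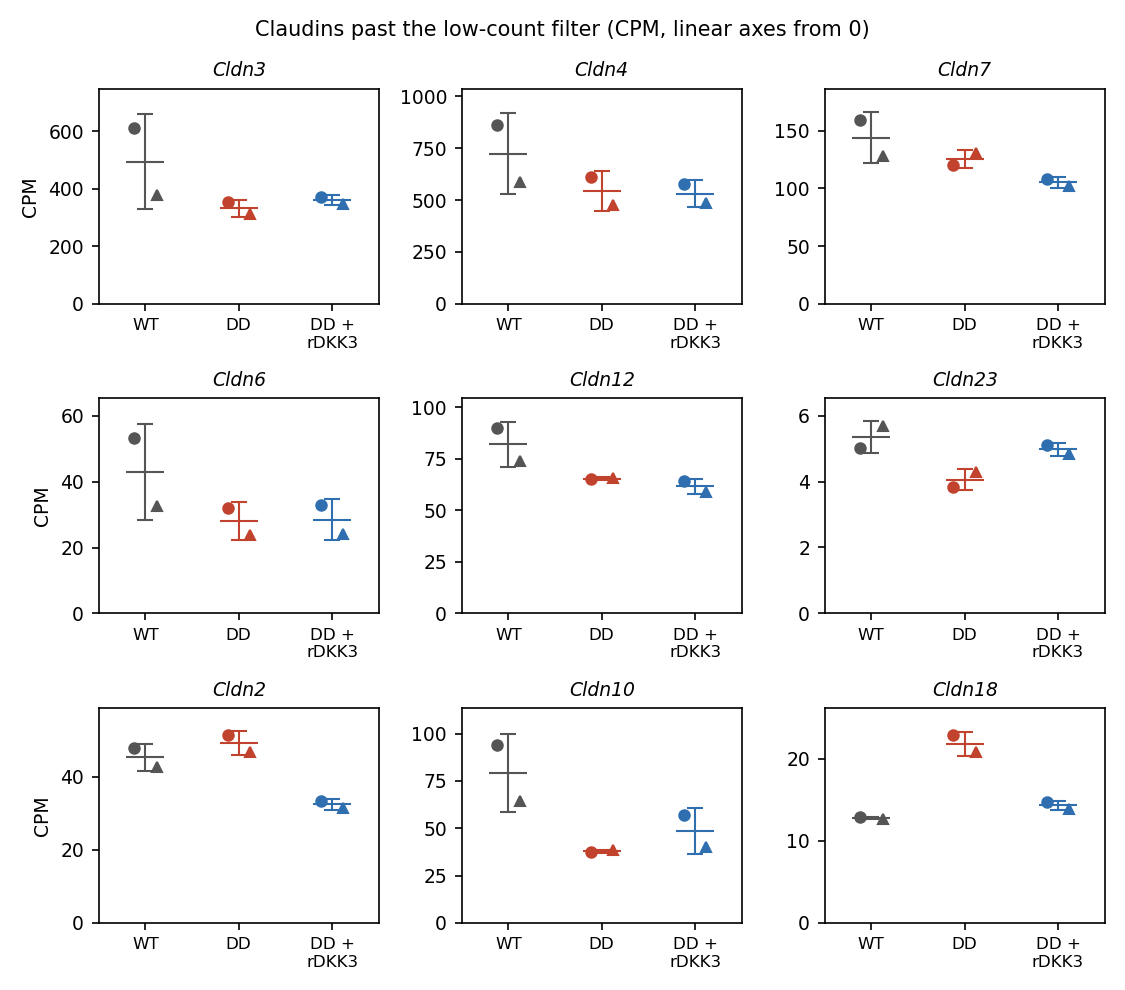
CPM of the 9 tested claudins in the 6 libraries, on linear axes that start at 0 and differ between panels. Circles and triangles are the libraries numbered 1 and 2, and bars show the mean ± SD of the 2 libraries. WT 1 is the highest point for Cldn3, Cldn4, Cldn6, Cldn7, Cldn10 and Cldn12, DD is highest for Cldn18, and DD + rDKK3 is lowest for Cldn2.

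DD was compared with WT to ask how claudin transcripts differed in acini that cannot make secreted DKK3. The paper reports that an intracellular form, Dkk3b, was unchanged between the genotypes. Cldn18 averaged 21.8 ± 1.45 CPM in DD and 12.8 ± 0.110 CPM in WT (mean ± SD, n = 2 each). Its log2 fold change was 0.77 (SE 0.164, 95% interval 0.389 to 1.15, adjusted p = 0.442), or 1.71-fold. Cldn10 averaged 37.8 ± 0.884 CPM in DD and 79.3 ± 20.8 CPM in WT, with a log2 fold change of -1.07 (SE 0.235, 95% interval -1.61 to -0.52, adjusted p = 0.468), or 0.478-fold. In bulk RNA, fewer cells of a type and less RNA per cell cannot be told apart. With edgeR's quasi-likelihood test and Benjamini-Hochberg adjustment, 0 of the 9 tested claudins passed an adjusted p of 0.05, against 0.0407% of all 14738 genes tested. At an unadjusted p under 0.05 there were 3 claudins, Cldn18 above and Cldn10 and Cldn3 below 0, where 8.26% of all genes were so found, 4.27% above and 3.99% below 0. DESeq2 called 1 claudin, Cldn10, at an adjusted p of 0.0129, and 0.543% of all genes. With limma-voom 0 claudins and 0.0543% of all genes were called.

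The direction was below 0 for 7 of the 9 claudins in DD against WT, and above 0 for Cldn18 and Cldn2, with Cldn7 also above 0 (0.0197) when libraries were scaled by total count alone. Of all genes tested, 51.7% lay above 0. The median log2 fold change was -0.40, beside 0.0164 over all genes tested. Cldn3 (-0.57), Cldn6 (-0.62), Cldn12 (-0.32) and Cldn23 (-0.40) had both DD libraries below both WT libraries, as did Cldn10. These 5 lower and 1 higher non-overlapping claudins stand beside 19.7% lower and 18.1% higher among all genes tested. For Cldn2 the log2 fold change was 0.12 with a 95% interval of -0.217 to 0.452. The interval for Cldn4 ran from -0.973 to 0.155 and that for Cldn7 from -0.59 to 0.195, so that neither a difference nor its absence was shown. Much of the median rested on WT 1. Without it the median was -0.16, and the log2 fold changes were -0.165 for Cldn3, -0.0907 for Cldn4, -0.211 for Cldn6 and -0.0164 for Cldn7. As each library was left out, Cldn10 ran from -1.31 without WT 2, the library labelled female, to -0.76 without WT 1. Cldn18 ran from 0.73 to 0.84, and was 0.77 without WT 2.

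DD + rDKK3 was compared with DD to ask what the added protein changed in null cultures. Cldn18 averaged 14.3 ± 0.570 CPM with rDKK3, with a log2 fold change of -0.61 (SE 0.161, 95% interval -0.983 to -0.232, adjusted p = 1). Cldn2 averaged 32.4 ± 1.47 CPM with rDKK3 and 49.1 ± 3.25 CPM in DD, with a log2 fold change of -0.60 (SE 0.144, 95% interval -0.935 to -0.266, adjusted p = 1). In the libraries numbered 1 and 2 the ratio of DD + rDKK3 to DD was 0.645 and 0.669 for Cldn18 and 0.650 and 0.670 for Cldn2. By edgeR 0 of the 9 claudins passed the adjusted threshold, as did 0% of all genes tested. At an unadjusted p under 0.05 there were 2, these same Cldn2 and Cldn18, both below 0, against 1.98% of all genes, 0.597% above and 1.38% below 0. DESeq2 called 0 claudins and 0.0339% of all genes, and limma-voom called 0 of both. A further edgeR fit took the library number as a replicate block within the 4 Dkk3-null libraries. There both passed, at an adjusted p of 0.0449 for Cldn18 and 0.0388 for Cldn2, as did 1.32% of all genes. Whether libraries of the same number are pairs is not known, so neither these p-values nor the ratios by number can be read as paired effects.

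For the other claudins the estimates with rDKK3 were smaller. Cldn10 had a log2 fold change of 0.36 (95% interval -0.18 to 0.903), and the ratio was 1.53 in the libraries numbered 1 and 1.04 in those numbered 2. Without DD + rDKK3 1 its log2 fold change was 0.0689, and without DD + rDKK3 2 it was 0.59. Cldn23 had 0.30 and Cldn7 -0.25, neither overlapping with DD. The log2 fold changes of Cldn4 (-0.04), Cldn6 (0.03) and Cldn3 (0.11) were smaller than their SEs of 0.242, 0.273 and 0.243. In all, 2 claudins were higher and 4 lower in both libraries than in both DD libraries, beside 15.1% and 14.4% of all genes tested. The median over the 9 claudins was -0.04, with 4 above and 5 below 0, and Cldn6 also below (-0.0214) under scaling by total count alone. Of all genes 49.5% lay above 0. The median took either sign as single libraries were left out, from -0.183 to 0.131.

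DD + rDKK3 was also set against WT. Cldn10 had a log2 fold change of -0.71 (SE 0.233, adjusted p = 0.321) and Cldn2 one of -0.48 (SE 0.145, adjusted p = 0.321). Cldn7 (-0.45) and Cldn12 (-0.41) had the same adjusted p. By edgeR 0 of 9 claudins passed, against 0.0475% of all genes tested. These 4 had an unadjusted p under 0.05, all below 0, against 15.3% of all genes, 7.34% above and 8% below 0. DESeq2 called 0 claudins and 0.502% of all genes, and limma-voom 0 claudins and 0.0204% of all genes. Cldn18 had a log2 fold change of 0.16 with a 95% interval of -0.219 to 0.548, although both DD + rDKK3 libraries lay above both WT libraries. Non-overlapping claudins were 1 higher and 6 lower, beside 27.9% and 27.1% of all genes tested. Only Cldn18 lay above 0, joined by Cldn23 (0.0516) under scaling by total count alone, and 51.6% of all genes did. The median over the claudins was -0.45, and -0.18 without WT 1. Without WT 1 the log2 fold change of Cldn10 was -0.39, and without WT 2 it was -0.95, with Cldn2 at -0.38 and -0.56. The 3 comparisons share libraries in pairs, so their values for 1 gene are not independent of each other.

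**Figure D3:**
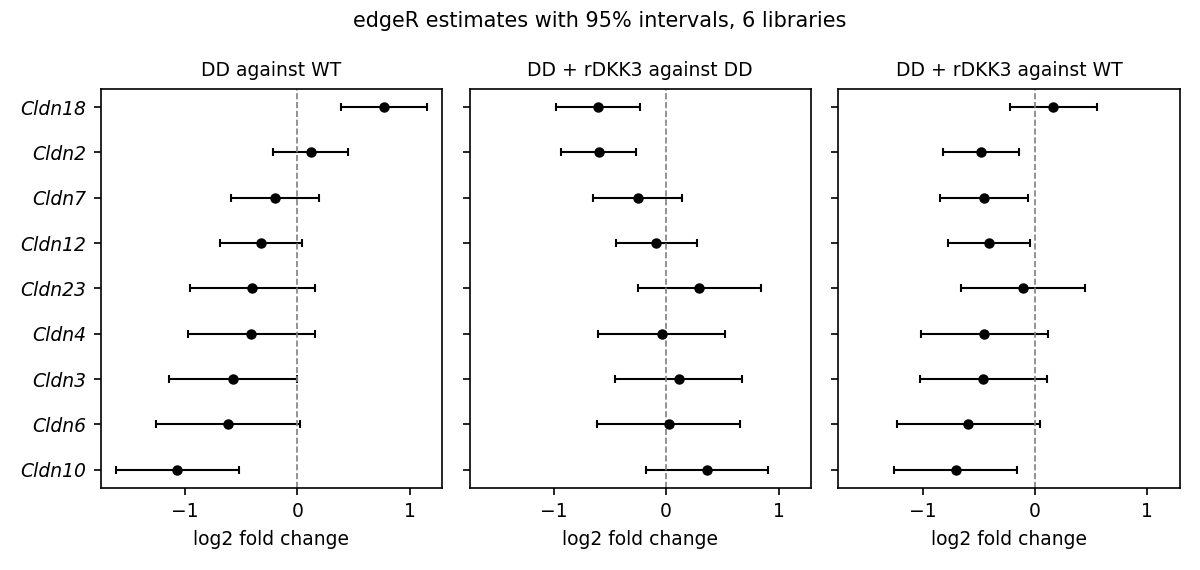
Log2 fold change (x axis) with 95% interval for the 9 tested claudins in the 3 comparisons, from the edgeR fit over 6 libraries. Intervals clear of 0 are seen for Cldn18, Cldn10 and Cldn3 in DD against WT, for Cldn18 and Cldn2 in DD + rDKK3 against DD, and for Cldn10, Cldn2, Cldn7 and Cldn12 in DD + rDKK3 against WT. None passed the adjusted threshold.

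Ratios between claudins of 1 library show the mixture without any scaling between libraries. The pairs were chosen after the values were seen, and no test is given. The ratio of Cldn18 to Cldn10 in CPM per kb was 0.0926 and 0.133 for WT, 0.416 and 0.366 for DD, and 0.175 and 0.235 for DD + rDKK3. The ratio of Cldn2 to Cldn10, both channel formers, was 0.447 and 0.580 for WT, 1.21 and 1.07 for DD, and 0.514 and 0.687 for DD + rDKK3. DD was thus the group in which Cldn2 had the higher level of the pair in both libraries, while Cldn10 did in all 4 others. The ratio of Cldn18 to Cldn2 was 0.207 and 0.230 in WT, and lay between 0.340 and 0.343 in all 4 Dkk3-null libraries, with and without rDKK3.

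**Figure D4:**
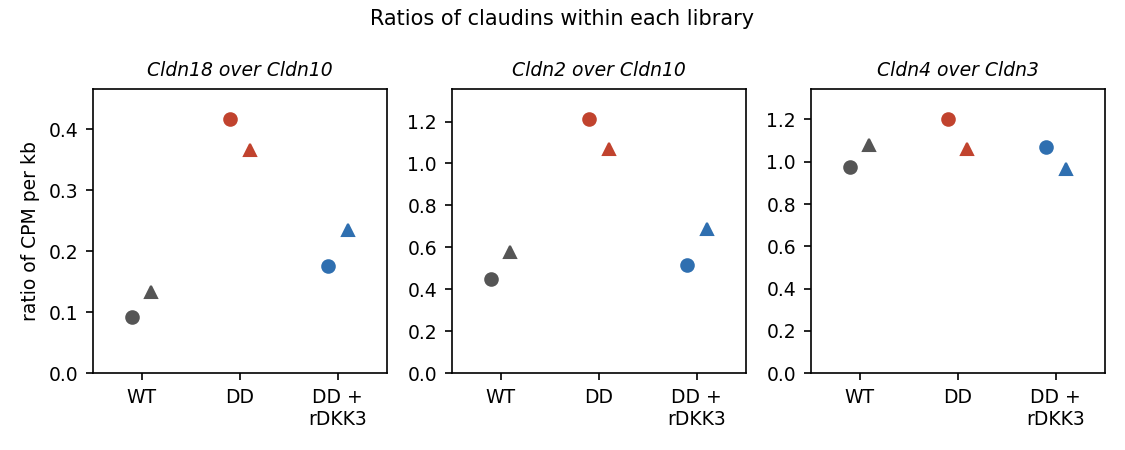
Ratio of CPM per kb within each library for 3 claudin pairs, with circles and triangles for the libraries numbered 1 and 2 of each group. Cldn18 over Cldn10 and Cldn2 over Cldn10 are highest in both DD libraries, whereas Cldn4 over Cldn3 stays between 0.966 and 1.20 in all 6.

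Lists of marker genes also moved between the same libraries, and bulk RNA does not show which cells expressed them. Of 5 gastric epithelium markers, Muc5ac, the gel-forming mucin of the stomach surface, had 68.1 and 46.6 CPM in WT, 320.2 and 913 CPM in DD, and 329.6 and 616.3 CPM in DD + rDKK3. Between DD and WT its edgeR log2 fold change was 3.43 (SE 0.541, adjusted p = 0.232). The secreted peptide gene Tff1 had 83.7 and 59.7 CPM in WT, 264.8 and 1226 CPM in DD, and 199.1 and 464.1 CPM in DD + rDKK3. Tff2, which made up most of the gastric sum in WT, had 313.3 and 501 CPM in WT, 381.9 and 351.4 CPM in DD, and 295 and 240.9 CPM in DD + rDKK3. It did not share the pattern of Muc5ac, with log2 fold changes of -0.15 in DD against WT and -0.60 (SE 0.246, adjusted p = 0.321) in DD + rDKK3 against WT. The 5 genes summed to 466 and 607 CPM in WT, 967 and 2507 CPM in DD, and 825 and 1335 CPM in DD + rDKK3, and Gkn1 and Gkn2 lay under 9 CPM in every library, with Gkn1 at 0 counts in WT 2 and DD 1. Within DD, Cldn18 was the higher in DD 1 and the gastric sum was the higher in DD 2. The part of these cells or genes in the Cldn18 result was not tested.

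Acinar markers had a median log2 fold change of -0.51 in DD against WT over 10 genes and summed to 126300 and 98650 CPM in WT, 89090 and 74440 CPM in DD, and 101300 and 81120 CPM in DD + rDKK3. Of these genes 7 lay below 0 and 3 above, the transcription factors Bhlha15 (0.547), Ptf1a (0.413) and Rbpjl (0.11). The enzyme gene Ctrb1 alone had 66740 CPM in WT 1, so the sum mostly follows a few enzyme genes. Both the acinar sum and Cldn3, Cldn4, Cldn6 and Cldn10 were highest in WT 1, whereas Ptf1a (118.7 CPM) and Bhlha15 (19.55 CPM) were lowest there. The part of acinar content in these claudins was not tested. Over 8 ductal markers the median in DD + rDKK3 against DD was -0.41. Tspan8 (-1.11) and Krt7 (-0.50) had an unadjusted p under 0.05, where 1.38% of all genes were so found below 0. The ductal sum was 1706 and 2648 CPM in DD and 1633 and 1820 CPM in DD + rDKK3, and its part in the Cldn2 and Cldn18 results was not tested. The fibroblast markers were high in DD 2 and DD + rDKK3 2. Without these 2 libraries, which were chosen after the data were seen, the log2 fold changes in DD against WT were 0.84 for Cldn18 and -1.09 for Cldn10, and those with rDKK3 were -0.63 for Cldn18 and -0.61 for Cldn2. That leaves 1 library each of DD and DD + rDKK3. With rDKK3 against DD 0 claudins then had an unadjusted p under 0.05, against 2 with all libraries. The part of fibroblasts in these results was not tested.

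The proteins that work with claudins were taken as a list of 25 tested tight junction genes. Between DD and WT their median log2 fold change was 0.24, with 17 above and 8 below 0, beside the claudin median of -0.40. Some partners were lowest in WT 1, with Cgn, Tjp1 and Magi1 among them, and others were highest there. Magi1, for instance, had 24.8 and 30.4 CPM in WT and 35.5 and 30.3 CPM in DD. The part of WT 1 in the partner median was not tested. By edgeR 0 passed the adjusted threshold, and 4 had an unadjusted p under 0.05, all above 0, where 4.27% of all genes were so found above 0. DESeq2 called 2 of the 25, Cgn and Ildr1, beside 0.543% of all genes, and limma-voom called 0. Ildr1 (angulin-2), which recruits tricellulin to the corners where 3 cells meet, had 40.4 and 42.4 CPM in WT, 79.8 and 79.5 CPM in DD, and 49.8 and 54.9 CPM in DD + rDKK3. The groups did not overlap, and DD was highest. Its log2 fold change was 0.94 (SE 0.141, adjusted p = 0.214) in DD against WT and -0.61 (SE 0.139, adjusted p = 1) in DD + rDKK3 against DD.

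Cgn, the scaffold cingulin, had 43.6 and 57.1 CPM in WT, 94.6 and 88.7 CPM in DD, and 82.9 and 106.1 CPM in DD + rDKK3. Both groups of null libraries were above WT and overlapped each other. Its log2 fold change was 0.86 (SE 0.195, adjusted p = 0.505) in DD against WT and 0.91 (SE 0.195, adjusted p = 0.321) in DD + rDKK3 against WT. Tjp1 (ZO-1), which binds the tails of most claudins, had a log2 fold change of 0.50 in DD against WT. In DD + rDKK3 against DD the list had a median of 0.00928. Its 1 unadjusted p under 0.05, that of Ildr1, stands beside 1.98% of all genes tested. In DD + rDKK3 against WT the median was 0.14, with 6 such genes, all above 0, with Cgn, Tjp1 and Magi1 among them, where 7.34% of all genes were so found above 0. In both, 0 passed the adjusted threshold by edgeR, while DESeq2 called Cgn and Tjp1 in DD + rDKK3 against WT, beside 0.502% of all genes.

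**Figure D5:**
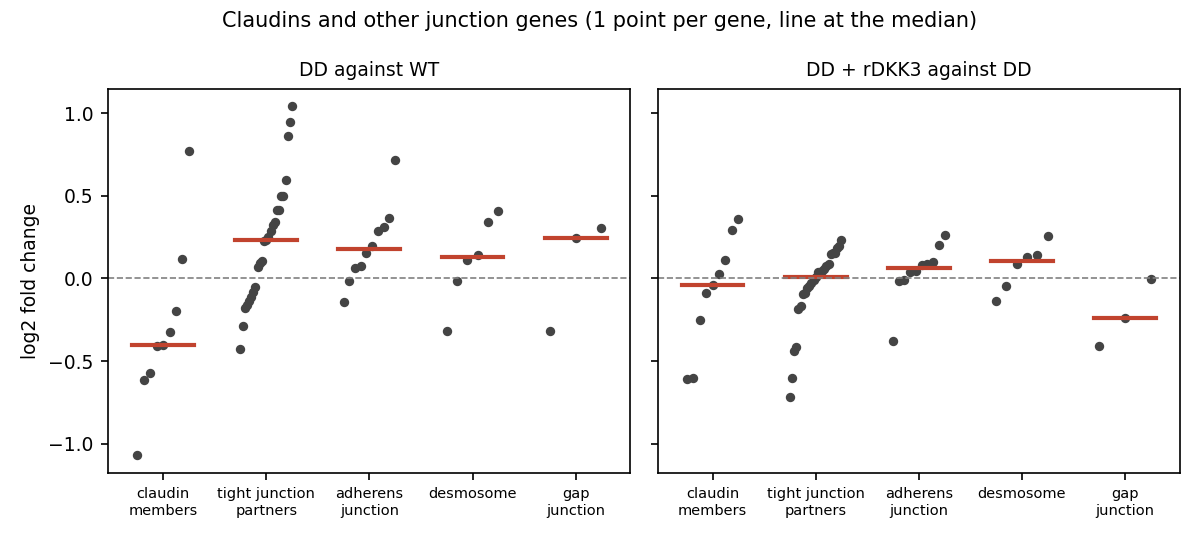
Log2 fold change (y axis) of each tested gene in the claudin set and in 4 lists of other junction genes, for DD against WT (left) and DD + rDKK3 against DD (right), with a line at each median. At the left the claudin median is -0.40 and that of the tight junction partners 0.24, and at the right they are -0.04 and 0.00928.

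Genes with the most similar profile to Cldn4 and Cldn10 were found among all tested genes by the root mean square difference of their log2 CPM over the 6 libraries, each gene centred on its mean. For Cldn4, the tested claudin with the highest CPM, these were Atp6v1g2 (0.0263), Il17d (0.0533) and Grhpr (0.0552). For Cldn10, the tested claudin with the widest range, they were Nxnl1 (0.0903), Aldoc (0.11) and Tmem221 (0.112). No claudin was among them. Nxnl1 was scarce, at 0.331 to 0.982 CPM. Atp6v1g2 (3.227 to 5.993 CPM) and Il17d (2.704 to 4.617 CPM) were also low, while Grhpr had the highest level, at 80.41 to 140.3 CPM.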

How the data were processed

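RNA was sequenced from 6 cultures at day 3. Per the labels and the study's methods, the authors aligned reads with STAR 2.7.9a to GRCm39 and counted exon reads per gene with strand, in Union mode, with GENCODE M32. Secondary alignments were ignored, and the study tested with DESeq2 1.38.0. The deposited table holds raw counts for 57045 rows, of which 92 are spike-in rows with 0 counts. The members and gene lists were chosen with earlier results of these data known.

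Counts as deposited were fitted with edgeR 4.0.16 (TMM, quasi-likelihood, R 4.3.3) over all 6 libraries in 3 groups, leaving 3 residual degrees of freedom. Genes passing filterByExpr (minimum count 10, minimum total 15) numbered 14738, and Benjamini-Hochberg adjustment ran over all of them. DESeq2 1.42.0, limma-voom (limma 3.58.1), no low-count filter, scaling by library size only, a replicate block and leaving out each library were alternatives. CPM used TMM-scaled totals, and exon lengths and promoters came from GENCODE M39.

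The text names all 10 claudins, other claudins averaging at least 1 CPM, up to 3 genes with the smallest p per list and comparison, and the 3 genes nearest in profile to Cldn4 and Cldn10. Some tight junction genes, transcription factors, gastric markers and acinar markers were named beyond that rule, after their values were seen. A tight junction gene of the list is counted but not reported here by name.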

Additional observations from a re-analysis of the deposited data

How the results depend on the processing

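With 2 libraries per group, 0 claudins passed under the test used above. Without the low-count filter, where more genes enter the fit, 2 passed in DD against WT (Cldn18, adjusted p = 0.0246 and Cldn10, adjusted p = 2.5e-05) and 1 in DD + rDKK3 against WT (Cldn10, adjusted p = 0.0254). That fit called 528 and 788 of 26506 genes in these comparisons. Genes with hardly any counts enter its estimate of the spread, so its p-values are not comparable with those of the filtered fit. DESeq2 called 1 claudin and 80 genes in all in DD against WT. The replicate block within the 4 Dkk3-null libraries called 2 claudins in DD + rDKK3 against DD and 194 genes in all, whereas the block over all 6 libraries called 7, 0 and 5 genes in the 3 comparisons. The labels tie no numbers to animals, so the main fit did not take the numbers as pairs. Deviations from group means correlated at 0.65 between DD and DD + rDKK3, the groups with title stems in common. They correlated at -0.387 between WT and DD and at -0.247 between WT and DD + rDKK3. Whether the Dkk3-null libraries of a number are pairs is thus not known, and the calls for Cldn18 and Cldn2 with rDKK3 depend on it. Of the tight junction partners, no filter called 3 in DD against WT and 3 in DD + rDKK3 against WT, DESeq2 called 2 in each, and the block called 1 with rDKK3 against DD. Scaling by library size alone, under which the median of all genes in DD against WT was 0.219, turned the sign of Cldn7 in DD against WT (0.0197), Cldn6 in DD + rDKK3 against DD (-0.0214) and Cldn23 in DD + rDKK3 against WT (0.0516). Relative to the median of all genes, the claudin median in DD against WT was -0.417 as reported and -0.399 under that scaling. Leaving out single libraries, Cldn4 ran from -0.208 to 0.131 and Cldn6 from -0.231 to 0.232 in DD + rDKK3 against DD. In all, 374 values of single claudins kept their direction and their side of the threshold, 6 came to pass it and 7 changed sign. The cause of these changes was not tested.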

Other observations

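Beyond the 10 claudins, the table holds 25 other claudin rows, of which 16 had 0 counts in every library and 6 had counts but did not pass the filter. The other 3 were tested. Cldn8, a claudin of tight kidney epithelia, had 15.6 and 12.9 CPM in WT, 9.32 and 8.47 CPM in DD, and 11.5 and 9.84 CPM in DD + rDKK3. Its groups did not overlap, with WT highest and DD lowest, in the order that Cldn10 had in its means. Between DD and WT, edgeR gave Cldn8 a log2 fold change of -0.68 (SE 0.198, adjusted p = 0.586). Cldn9, whose gene ends 137 bases from that of Cldn6 on the other strand, had 5.31 and 6.39 CPM in WT, 4.64 and 4.29 CPM in DD, and 6.07 and 5.002 CPM in DD + rDKK3. Cldn5, the claudin of endothelium, had between 0.562 and 2.46 CPM, and its 2 WT libraries were the extremes.

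Regulators of claudins and other junction genes were described by the same counts, and by edgeR 0 passed the adjusted threshold in any of these lists and comparisons. Over 8 regulators the median log2 fold change between DD and WT was -0.00998. Of these 1 had an unadjusted p under 0.05, the kinase Wnk1 (0.53), beside 8.26% of all genes tested. Epcam, which binds Cldn7 and protects it from degradation, had -0.41 in DD + rDKK3 against WT. Over 8 transcription factors the median was 0.64 in DD against WT, with 1 such gene, Hnf4a (0.80), again beside 8.26% of all genes. Snai1 (2.03), Snai2 (1.63) and Zeb2 (1.42), known as repressors of epithelial genes, had the highest estimates of this list. Snai1 had 2.16 and 2.11 CPM in WT, 2.04 and 15.5 CPM in DD, and 3.12 and 15.1 CPM in DD + rDKK3. All 3 were highest in DD 2 and DD + rDKK3 2, the libraries with the highest fibroblast marker sums, and the part of fibroblasts in this list was not tested. The epithelial factors Elf3 (-0.04), Grhl1 (0.16) and Grhl2 (0.15) lay near 0. In DD against WT the 10 adherens junction genes had a median of 0.18 and the 6 desmosome genes one of 0.13. In that comparison 0 of them had an unadjusted p under 0.05. In DD + rDKK3 against WT 1 of them did, the desmosome gene Dsp (0.66), beside 15.3% of all genes tested. Gjb1, the gap junction protein connexin 32 of exocrine acini, had 90.7 and 98.8 CPM in WT, 106.8 and 117.9 CPM in DD, and 82.0 and 87.5 CPM in DD + rDKK3, with a log2 fold change of -0.41 in DD + rDKK3 against DD (adjusted p = 1).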
